A study of Mus musculus with 22 samples.

Results

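Etnppl, the gene for ethanolamine-phosphate phospho-lyase, was followed through every hypothalamic cell type of leptin-deficient mice after a single injection of fibroblast growth factor 1 (FGF1) into the brain's ventricles. It is 1 gene of the 20668 in the table of nuclei and of the 16304 in the table of whole cells. It was chosen by its own measured fold change, lower after FGF1 than after vehicle in glia in earlier results of these data, so its FGF1 and vehicle values are given as a description, with errors and without a test. Every comparison of the series entered: Day 1 and Day 5, per mouse and per cell type or cluster.

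The enzyme uses pyridoxal phosphate to split phosphoethanolamine into acetaldehyde, ammonia and inorganic phosphate. Phosphoethanolamine is the head group precursor from which the Kennedy pathway builds phosphatidylethanolamine, a main phospholipid of membranes, so the enzyme removes a building block that would otherwise go into membrane lipid. In the brain Etnppl is known as an astrocyte gene. Astrocytes are the glia that take up glutamate and supply neurons. The wall of the third ventricle is formed by tanycytes and by ependymal cells, the latter with beating cilia.

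All 22 mice were male ob/ob mice, which lack leptin and are obese and diabetic, 11 weeks old. FGF1 mice received 3 µg of FGF1 once into a lateral ventricle. Control mice received vehicle the same way and were pair-fed, that is, given only as much food as the FGF1 mice ate. Nuclei came from a punch of the hypothalamus and whole cells from a wedge cut from its mediobasal part, and each sample is 1 mouse. Nuclei were profiled 24 h after injection (Day 1, 3 FGF1 and 3 vehicle mice) and on Day 5 (2 and 2), and whole cells on Day 5 in a separate cohort (6 and 6). FGF1 was given as a protein, with no transgene or Cre, and no wild-type or uninjected mice were among these groups.

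The nuclei gave 24965 barcodes with 2721087 to 16345981 unique molecular identifiers (UMIs, 1 per captured transcript) per mouse, and the whole cells 54890 barcodes with 2652897 to 11866269. Day 1 nuclei of FGF1 mice were shallower, with median UMIs per nucleus of 2029 to 2816 against 3179 to 3776 in vehicle mice. Of the distinct barcode sequences, 318 of 24645 (nuclei) and 1791 of 53065 (cells) occurred in more than 1 mouse, and cells were told apart by mouse and barcode together. Nuclei carried the submitters' cell type names. Whole-cell clusters carried only numbers and were named here from marker genes, so that astrocytes (clusters 1 and 4), tanycytes (0, 7 and 10) and ependymal cells (6) stand for astrocyte-like, tanycyte-like and ependymal-like cells. All 6 astrocyte markers and all 5 ependymal markers met the naming rule in the clusters so named, so they are no separate check of those names. In nuclei of these types all were detected too, but detection of any UMI in a group is a weak check. Tanycyte clusters rested on 3 or 4 of 6 tanycyte markers, and all 6 were detected in tanycyte nuclei. Cluster 0, the largest with 9509 cells, rested on Crym, Col23a1 and Lhx2. The tanycyte marker Rax met the rule in clusters 7 and 10 but not in cluster 0.

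In the mouse genome (GRCm38, GENCODE annotation) Etnppl, ENSMUSG00000019232.14, lies on the plus strand of chromosome 3 from 130617448 to 130637521. It has 6 annotated transcripts, 4 of them protein coding, and Etnppl-201 has 13 exons with 4468 bases. No other gene overlaps it. The nearest genes are Col25a1, which ends 17571 bases upstream, and Ostc, 58391 bases downstream. The kit reads transcripts near their 3′ ends, so the counts do not tell the transcripts apart.

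Levels below are CPM: Etnppl UMIs of all cells of a type in a mouse per 1000000 UMIs of those cells (counts per 1000000), with library sizes scaled by the trimmed mean of M-values (TMM). In Day 1 nuclei of vehicle mice the gene was highest in ventricular and astrocytic glia, with 300.1 ± 54.4 CPM in astrocytes, 429 ± 266 in ependymal cells and 151 ± 47.2 in tanycytes (SD, n = 3). The order of astrocytes and ependymal cells was not fixed, since astrocytes were higher in 1 of 3 mice. Astrocytes were above tanycytes in 3 of 3. Unmapped neurons, the largest group of nuclei, held 9.65 ± 1.51 CPM, and tanycytes were 10.4 to 20.7 times higher than these neurons in the same mouse.

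In whole cells of vehicle mice astrocytes led with 647 ± 79.8 CPM (SD, n = 6), and ependymal cells held 274 ± 80.4. Pericytes, at 286 ± 232 from 60 UMIs in 182 cells, overlapped them widely, from 105 to 738. Astrocytes were 1.86 to 3.46 times above ependymal cells, in 6 of 6 mice. Ependymal cells were above tanycytes, microglia, endothelial cells and oligodendrocytes in 6 of 6 mice. Tanycytes held 144 ± 57.7 CPM beside 159 ± 65.1 in microglia, 132 ± 38.5 in oligodendrocytes and 117 ± 29.7 in endothelial cells. They were above microglia in 2 of 6 mice, so that tanycytes in this preparation did not stand above microglia, a type not known to use the gene. Tanycytes were above oligodendrocytes and above endothelial cells in most mice but not in all. Astrocytes held 57.4% of all Etnppl UMIs of vehicle mice in whole cells and 42.0% in Day 1 nuclei. These shares came from 29.7% of the cells and 5.45% of the nuclei.

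**Figure D1:**
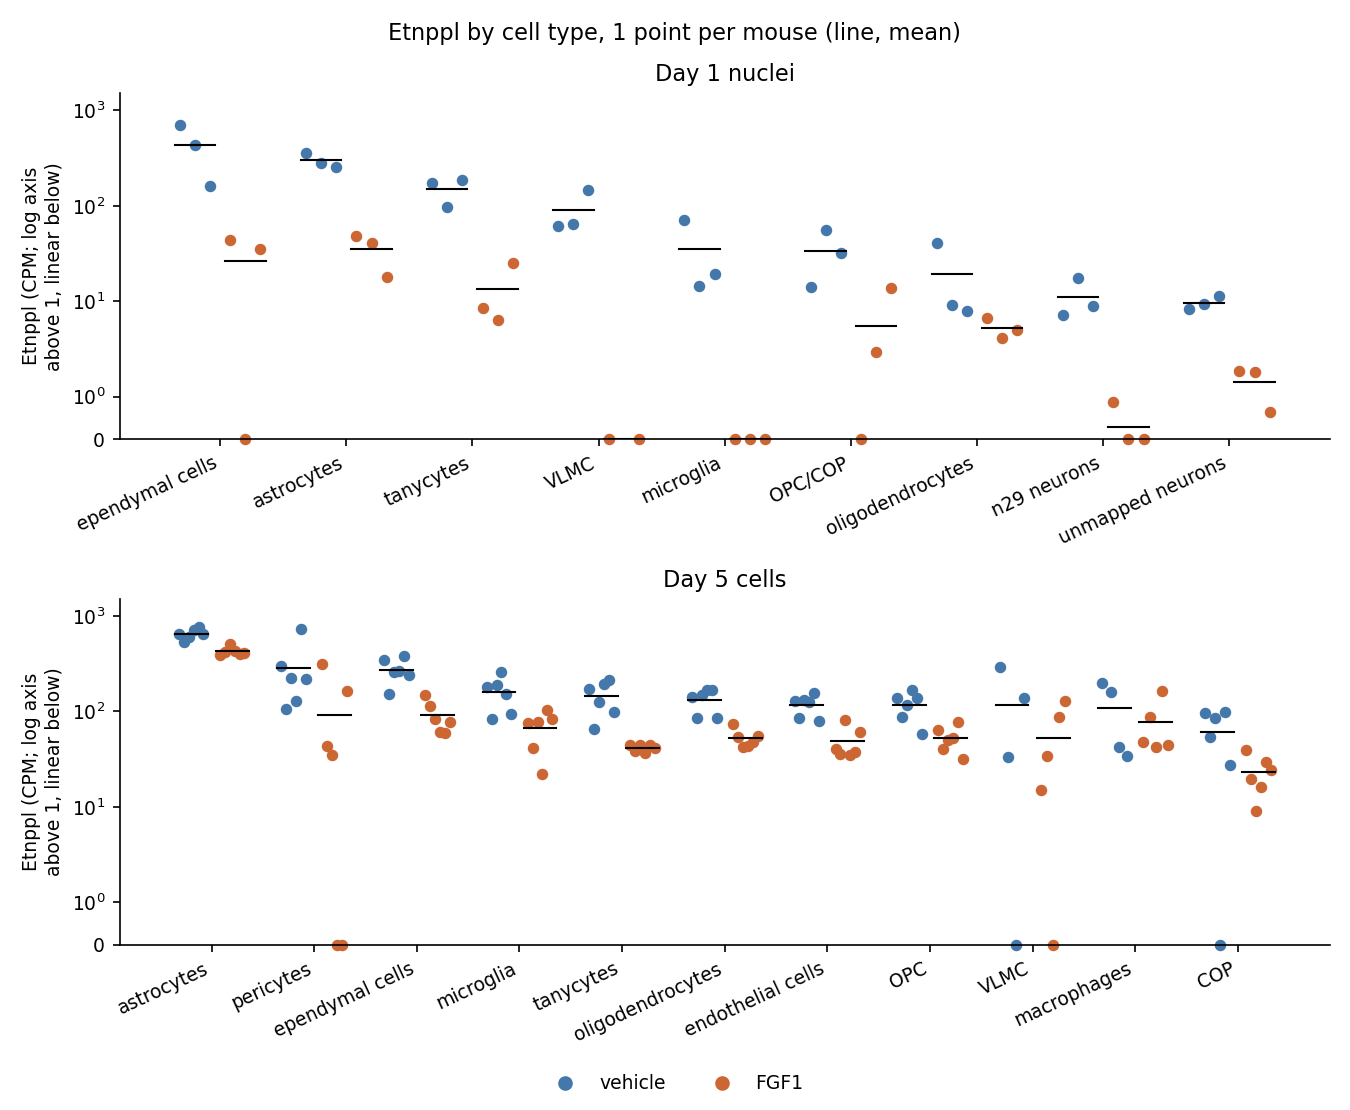
Etnppl (y axis, CPM, logarithmic above 1) in mice with 10 or more nuclei or cells of a type, Day 1 nuclei above and Day 5 whole cells below. The Day 1 panel draws a selection of types and leaves out several neuron types. Each point is 1 mouse, vehicle in blue and FGF1 in orange, and lines are means. Vehicle means run from 647 CPM in astrocytes to 60.5 in committed oligodendrocyte precursors (COP) in whole cells. Among the types drawn for Day 1 nuclei the range is wider, from 9.65 in unmapped neurons to 429 in ependymal cells. Of those left out, the neurons named Glu4 and n02 were at 0 in vehicle mice.

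The question of the Day 1 comparison was how glia differ 24 h after FGF1. In astrocyte nuclei Etnppl stood at 48.3, 40.3 and 17.7 CPM in the 3 FGF1 mice (50, 17 and 3 UMIs in 388, 113 and 52 nuclei) and at 361, 283 and 257 CPM in the 3 vehicle mice (80, 165 and 45 UMIs in 57, 148 and 45 nuclei). Every FGF1 mouse was far below every vehicle mouse. The means were 35.4 ± 15.8 and 300.1 ± 54.4 CPM (SD, n = 3 each), a log2 fold change of -2.99 ± 0.49 (SE), or a level 7.97 times higher in vehicle mice. It ranked the 6th lowest among 6063 genes tested. In these astrocytes 0.165% of genes were called lower by edgeR, and 6.22% were lower without overlap of the groups.

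Tanycyte nuclei held 8.42, 6.33 and 25.1 CPM in FGF1 mice, from 3, 1 and 2 UMIs, against 171, 97.7 and 186 CPM in vehicle mice, from 25, 14 and 14 UMIs. Again the groups did not overlap, as was so for 13% of genes on the lower side in this type. The log2 fold change was -3.74 ± 0.56, the 11th lowest of 3534. Ependymal nuclei held 44.1, 0 and 35.6 CPM in FGF1 mice, from 5 UMIs in 59 nuclei in all, against 695, 430.2 and 163 CPM in vehicle mice, from 81 UMIs in 47 nuclei. Their log2 fold change was -3.97 ± 0.74, the 3rd lowest of 1456, and the groups did not overlap, as for 19% of genes on the lower side. With so few UMIs in FGF1 mice, the size of both differences is known only within these errors, while the order of the groups was the same in each.

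Each of the authors' batches held 1 FGF1 and 1 vehicle mouse. The FGF1 mouse was the lower one in 3 of 3 Day 1 batches in all 3 types. Within batches the log2 ratio ran from -3.99 to -2.41 in astrocytes and from -4.76 to -1.96 in tanycytes. In ependymal cells it was -3.60 and -1.89 in the batches where both mice had a UMI.

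**Figure D2:**
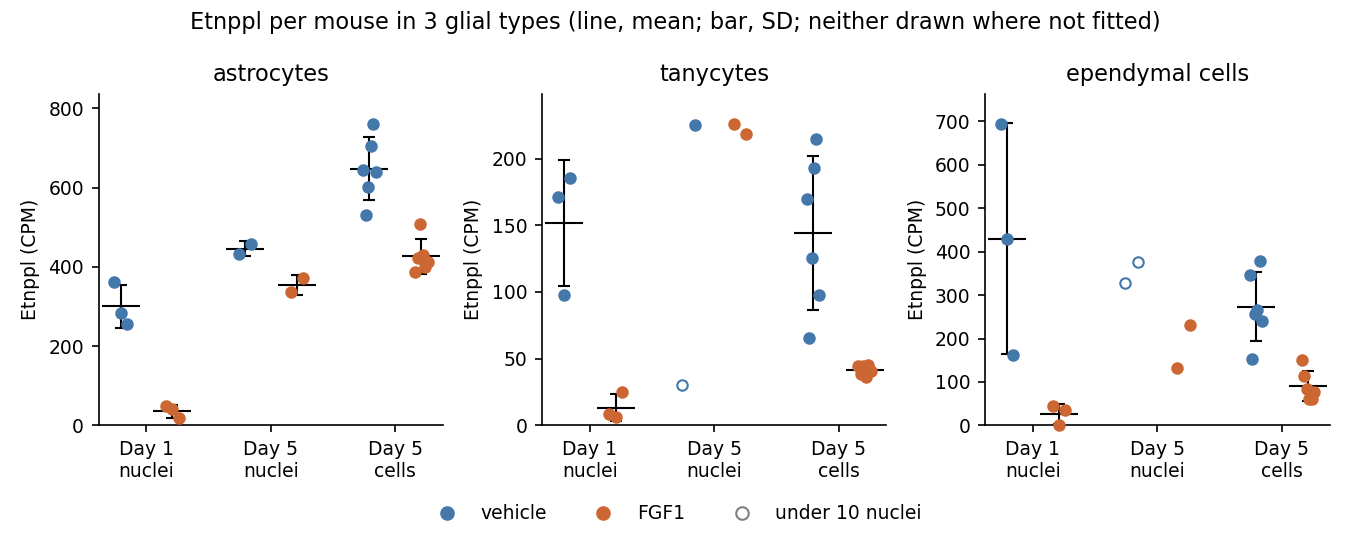
Etnppl (y axis, CPM) per mouse in astrocytes, tanycytes and ependymal cells, by comparison (x axis), with mean and SD where at least 2 mice per group had 10 nuclei or cells; types without mean and SD are in plain CPM, and open points mark mice with fewer than 10. On Day 1 the FGF1 mice lie below every vehicle mouse in each type, and in Day 5 astrocyte nuclei the groups are closer, at 354 and 445 CPM.

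Etnppl was also lower after FGF1 in several types where it was scarce, though not in all. The neurons named Glu4 and n02 had 0 UMIs in both groups, and those named Glu6 overlapped, at 0 to 6.49 CPM after FGF1 and 0 to 12.3 after vehicle. Unmapped neurons held 0.630 to 1.86 CPM in the 3 FGF1 mice and 8.27 to 11.3 CPM in the 3 vehicle mice, without overlap, as for 6.46% of genes on the lower side there. Within batches their log2 ratio ran from -3.90 to -2.18. Microglia had 0 Etnppl UMIs in 147 nuclei of FGF1 mice, which allows up to 2.04% of nuclei with such a UMI. This sets no limit on nuclei that use the gene. Vehicle microglia had 16 UMIs in 97 nuclei, at 14.4, 19.1 and 71.0 CPM per mouse. Their pooled level was 6.30 times the floor of 3 counts over the FGF1 group. Vascular and leptomeningeal cells (VLMC) had 0 UMIs in 46 FGF1 nuclei, which allows up to 6.52% of nuclei with a UMI. Their 46 vehicle nuclei had 14 UMIs, a pooled level 3.24 times the floor of the FGF1 group. Oligodendrocytes held 4.12 to 6.65 CPM after FGF1 and 7.96 to 41.0 CPM after vehicle. Such limits and floors cover counting error in the FGF1 group only, not that of the vehicle level or the spread between mice.

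Free RNA from broken cells gives UMIs in droplets of other types, so Etnppl was set beside the 6 astrocyte marker genes (Aqp4, Gja1, Slc7a10, Ntsr2, Slc1a2 and Aldh1l1) in the same nuclei. Astrocytes of vehicle mice had 110 to 117 Etnppl UMIs per 1000 marker UMIs, and those of FGF1 mice 11.7 to 18.2. Unmapped neurons showed nearly the same pair of values, with 84.8 to 124 after vehicle and 10.9 to 25.6 after FGF1. Tanycytes had 76.1 to 144 and 6.10 to 37.0. Ependymal cells had 124 to 457 after vehicle and 0 to 111 after FGF1. Types with few marker UMIs reached as high after vehicle, with 93.8 to 393 in microglia and 107 to 279 in the neurons named n29, beside 0 in microglia and 0 to 15.2 in n29 neurons after FGF1. The ratio therefore did not set ependymal cells apart. Etnppl was thus also lower relative to the markers themselves, which summed to 1563 to 2576 CPM in FGF1 and 2342 to 3330 CPM in vehicle astrocytes. The part that free RNA plays in the values of each type was not tested.

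Other markers moved with the groups as well (sums in plain CPM). In Day 1 ependymal nuclei the 5 ependymal markers summed to 827 to 1435 CPM after FGF1 and 2578 to 3563 after vehicle, and the 6 astrocyte markers to 323 to 673 and 1072 to 1437. All 5 pericyte markers were at 0 in ependymal nuclei of FGF1 mice. In tanycyte nuclei the 6 tanycyte markers summed to 635 to 1021 and 939 to 1364 CPM, the 6 astrocyte markers to 680 to 1091 and 1312 to 2178, and the 5 ependymal markers to 63.0 to 95.3 and 302 to 528. In astrocyte nuclei the 5 neuronal markers summed to 1247 to 2494 and 2544 to 3978 CPM, and the 6 oligodendrocyte markers to 120.2 to 359 and 432 to 1105. The part of these shifts in the Etnppl values was not tested.

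Depth was matched by thinning each nucleus to 1000 UMIs. The share of astrocyte nuclei with an Etnppl UMI was then 3.49 ± 1.43% after FGF1 and 27.8 ± 4.39% after vehicle on Day 1 (SD, n = 3), and 9.83% and 61.0% unthinned. Tanycytes gave 0.855 ± 0.565% and 13.5 ± 3.57%, and ependymal cells 1.96 ± 1.92% and 33.9 ± 16.6%. Microglia of vehicle mice, a type not known for the gene, gave 3.71 ± 3.09%, and unmapped neurons 0.810 ± 0.143%. In FGF1 mice the same 2 types gave 0% and 0.110 ± 0.0769%, at median depths of 2474 to 4363 and 1889 to 2683 UMIs beside 2298 to 3234 in FGF1 tanycytes and ependymal cells. By CPM, FGF1 tanycytes were above microglia and unmapped neurons in 3 of 3 mice and FGF1 ependymal cells in 2 of 3, on the few UMIs given above. After vehicle both were above them in 3 of 3.

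On Day 5 the nuclei of 2 FGF1 mice held 336 and 371 CPM of Etnppl in astrocytes, and those of 2 vehicle mice 432 and 459 CPM. The FGF1 mice were lower, but much nearer than on Day 1. The log2 fold change was -0.34 ± 0.37 (SE, n = 2 each), smaller than its error, and ranked 2607th lowest of 8484 genes. No overlap was found for 20.1% of genes on the lower side in this comparison. Both batches gave a lower FGF1 mouse, by log2 ratios of -0.36 and -0.30. Relative to the astrocyte markers the gap was wider, at 75.8 to 76.4 UMIs per 1000 after FGF1 and 120.2 to 145 after vehicle. The markers themselves went the other way, at 4580 to 4869 CPM after FGF1 and 3284 to 3331 after vehicle.

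Unmapped neurons held 1.19 and 6.44 CPM after FGF1 (5 and 46 UMIs) and 6.59 and 33.4 CPM after vehicle (32 and 38 UMIs). The higher FGF1 mouse was just under the lower vehicle mouse, and no overlap was found for 21.8% of genes on the lower side there. The log2 fold change was -2.0 ± 1.09, the 61st lowest of 14599, with batch ratios of -2.48 and -2.37. Oligodendrocyte precursors, grouped with committed ones in nuclei (OPC/COP), held 33.3 ± 4.58 and 56.5 ± 35.1 CPM with overlap, a log2 fold change of -0.53 ± 0.54. Microglia held 13.6 and 17.2 CPM after FGF1 (10 UMIs) and 34.6 and 102 CPM after vehicle (18 UMIs). Oligodendrocytes held 7.89 and 10.1 CPM (17 UMIs) and 11.9 and 16.6 CPM (13 UMIs). The neurons named Glu5 overlapped, at 2.76 to 3.91 and 0 to 13.9 CPM.

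Tanycytes and ependymal nuclei of Day 5 could not be fitted, since a vehicle mouse had fewer than 10 of them, and their levels here are plain CPM without the TMM scaling. Tanycytes of FGF1 mice held 226 and 219 CPM in 34 and 107 nuclei. One vehicle mouse held 225 CPM in 14 nuclei, and the other had 1 UMI in 9 nuclei. The FGF1 tanycytes, which stood at 6.65 to 25.2 plain CPM on Day 1 in other mice, were here near the CPM of the better sampled vehicle mouse. Per 1000 astrocyte marker UMIs they had 84.9 and 96.2 against 144 in that vehicle mouse, and the astrocyte markers summed to 2352 to 2575 CPM after FGF1 and 1562 to 1580 after vehicle. The 6 tanycyte markers summed to 1063 to 1255 and 1823 to 2148 CPM. Ependymal nuclei held 133 and 232 CPM after FGF1 and 329 and 375 CPM after vehicle, the latter from 3 and 8 nuclei. Their ependymal markers summed to 2408 to 3911 CPM after FGF1 and 657 to 1474 after vehicle, and their astrocyte markers to 1421 to 1868 and 2278 to 3418. The part of these marker shifts was not tested. The change from Day 1 to Day 5 was not tested, since the days were prepared as separate mice and libraries.

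The larger Day 5 cohort of whole cells gave a fuller view. In astrocytes Etnppl ranged from 386 to 509 CPM (median 417) in 6 FGF1 mice and from 531 to 761 CPM (median 643) in 6 vehicle mice. The highest FGF1 mouse was just under the lowest vehicle mouse. Only 1.85% of genes were lower without overlap here, and edgeR called 6.06% lower. The means were 426 ± 43.2 and 647 ± 79.8 CPM, a log2 fold change of -0.60 ± 0.10 and the 531st lowest of 9830 genes. Within the 6 batches the log2 ratio ran from -0.85 to -0.33, lower after FGF1 in each.

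Ependymal cells showed a wider gap than astrocytes, from 59.9 to 150 CPM (median 80.2) after FGF1 and from 153 to 379 CPM (median 261) after vehicle. The log2 fold change was -1.73 ± 0.20, the lowest of all 6734 genes tested in ependymal cells, and the groups did not overlap, as for 0.713% of genes on the lower side. The FGF1 mouse with the highest value had only 19 ependymal cells and 4 Etnppl UMIs. Tanycytes ranged from 36.3 to 44.9 CPM (median 42.7) after FGF1 and from 65.8 to 214 CPM (median 148) after vehicle. Their log2 fold change of -1.81 ± 0.23 was the 2nd lowest of 10494 genes, and 1.09% of genes were lower without overlap. The treatments filled the tanycyte clusters differently, with 2728 of 9204 cells of FGF1 mice and 590 of 5200 of vehicle mice in cluster 7. Within cluster 0, the largest, Etnppl stood at 55.4 ± 11.3 and 169 ± 57.9 CPM without overlap, as for 1.12% of genes on the lower side. Within cluster 7 it stood at 27.2 ± 9.29 (n = 5) and 85.4 ± 46.5 CPM with overlap. Within batches FGF1 mice were lower in 6 of 6, from -2.52 to -0.04 in ependymal cells and from -2.49 to -0.57 in tanycytes.

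The same direction was seen in types that are not known for the gene. Microglia held 67.0 ± 29.6 CPM after FGF1 and 159 ± 65.1 after vehicle, endothelial cells 48.4 ± 18.7 and 117 ± 29.7, and OPC 52.6 ± 16.4 and 117 ± 39.4, all with overlapping groups. Oligodendrocytes held 52.6 ± 11.5 and 132 ± 38.5 CPM without overlap, as for 0.687% of genes on the lower side. The oligodendrocytes of the treatments were spread differently over clusters 2, 11 and 12. Cluster 11, with 26.9 ± 5.10 and 71.5 ± 50.9 CPM, held 1212 of 3234 such cells of FGF1 mice and 166 of 6728 of vehicle mice. Cluster 2 held 15.5 to 75.3% of them in FGF1 mice and 78.0 to 91.4% in vehicle mice. Within it Etnppl stood at 82.1 ± 18.4 and 146 ± 41.9 CPM with overlap, a level 1.85 times higher after vehicle against 2.51 times over all oligodendrocytes. FGF1 mice were lower within 6 of 6 batches in microglia, oligodendrocytes and OPC, and within 5 of 6 in endothelial cells. Inside single clusters they were lower in 3 of 4 batches in cluster 12 and in 5 of 6 in cluster 5, an OPC cluster. Cluster 12 stood at 40.5 ± 21.9 (n = 4) and 81.7 ± 41.1 CPM with overlap. Thinned to 1000 UMIs, 12.7 ± 4.74% of vehicle tanycytes had an Etnppl UMI (17.3% unthinned), beside 13.1 ± 4.69% of microglia, 11.4 ± 3.52% of oligodendrocytes and 10.6 ± 2.45% of endothelial cells. After FGF1 the thinned shares were 3.62 ± 0.501% in tanycytes and 5.12 ± 1.65% in microglia. Median depths were alike, at 1136 to 1902 UMIs in vehicle tanycytes and 1012 to 1809 in vehicle microglia. By these shares tanycytes could not be told apart from types that are not known for the gene, in either group.

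Astrocytes stood clear of that level in both groups. Thinned shares were 33.1 ± 3.01% and 44.3 ± 3.33% in astrocytes after FGF1 and vehicle (38.3% and 48.7% unthinned), after 1498 and 3543 shallower cells were left out. Ependymal cells gave 9.06 ± 5.97% and 22.5 ± 6.26% (12.6% and 33.6% unthinned), with 262 and 383 cells left out. The ranges of ependymal cells met those of microglia, at 4.26 to 20.4% beside 2.98 to 7.19% after FGF1 and 12.9 to 31.8% beside 6.73 to 17.5% after vehicle. By CPM ependymal cells were above microglia in 4 of 6 FGF1 mice and in 6 of 6 vehicle mice. Per 1000 astrocyte marker UMIs, astrocytes had 45.4 to 57.1 Etnppl UMIs after FGF1 and 72.6 to 111 after vehicle. In ependymal cells the ratio was 33.6 to 133 and 94.3 to 186. Tanycytes had 21.9 to 37.0 and 28.6 to 77.5, and oligodendrocytes 33.5 to 64.1 and 61.7 to 94.9. The medians after FGF1 and vehicle were 47.7 and 91.9 in astrocytes, 46.9 and 74.1 in oligodendrocytes and 23.7 and 51.8 in tanycytes, so that tanycytes had the lowest of the 3 in both groups. Oligodendrocytes carried 818 to 1544 and 1266 to 2116 CPM of the astrocyte markers, far below astrocytes and overlapping the range of ependymal cells.

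Marker sums in the whole cells did not follow Etnppl in astrocytes, where the 6 astrocyte markers summed to 8334 to 9834 CPM after FGF1 and 6372 to 7304 after vehicle. In ependymal cells the 5 ependymal markers summed to 5460 to 7273 and 4468 to 7245 CPM, and the astrocyte markers to 1378 to 1696 and 1451 to 2151. In tanycytes the astrocyte markers summed to 1167 to 1894 and 2132 to 3442. The 5 neuronal markers in astrocytes summed to 109 to 233 CPM after FGF1 and 236 to 526 after vehicle. The median mitochondrial share of UMIs in astrocytes was alike, at 12.9 to 15.7% and 11.3 to 16.5%.

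**Figure D3:**
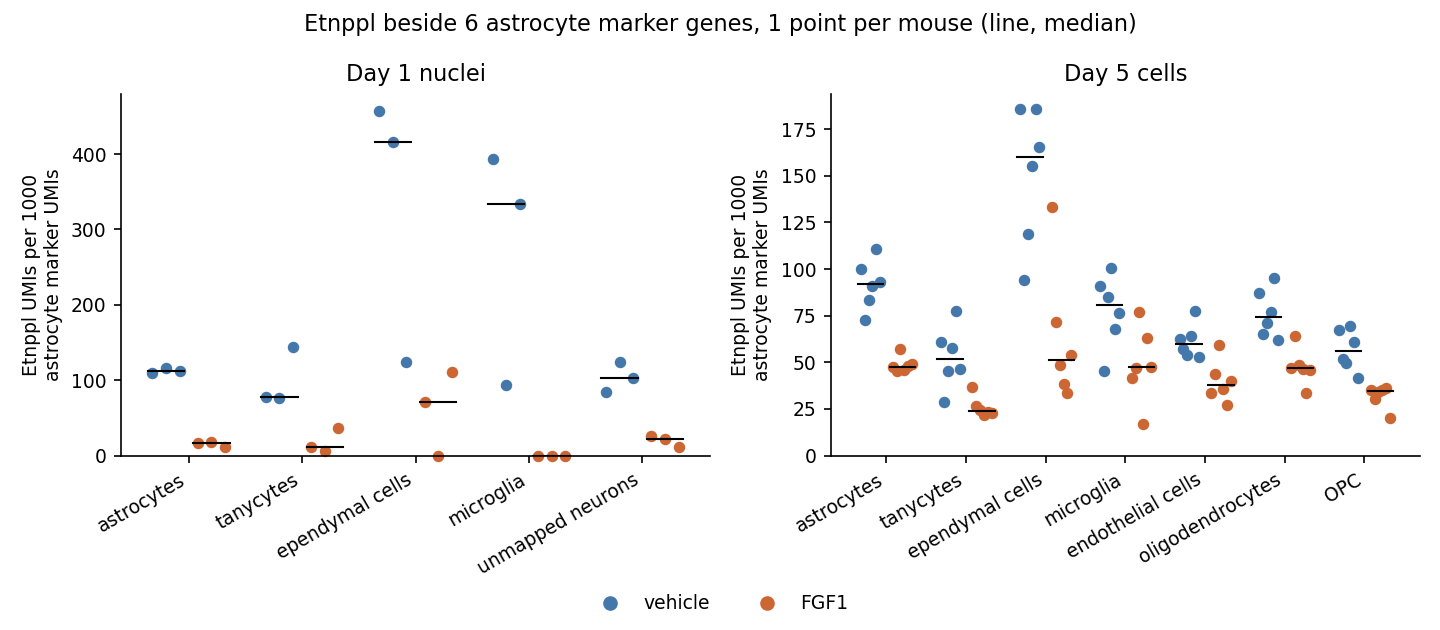
Etnppl UMIs per 1000 UMIs of 6 astrocyte marker genes (y axis) per mouse and cell type (x axis), Day 1 nuclei on the left and Day 5 whole cells on the right, vehicle in blue, FGF1 in orange, lines at medians. Day 1 astrocytes sit at 11.7 to 18.2 after FGF1 and 110 to 117 after vehicle, unmapped neurons at similar values, and vehicle ependymal cells and microglia mostly above both.

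The astrocytes of the 2 treatments fell mostly into different clusters of the authors' clustering. Cluster 1 held 81.6 to 96.3% of astrocytes in vehicle mice and 6.93 to 52.1% in FGF1 mice, and cluster 4 held the others. Within cluster 1 Etnppl stood at 440.2 ± 64.6 CPM after FGF1 and 648 ± 75.3 after vehicle (SD, n = 6 each), without overlap, as for 0.599% of genes on the lower side. Within cluster 4 it stood at 431 ± 48.0 and 616 ± 125 CPM, with overlap. The FGF1 mouse was lower within 6 of 6 batches in both clusters. Between the clusters the levels hardly differed within a treatment, so the gap between treatments was about the same in each.

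Of the genes that make or use phosphoethanolamine or lead to phospholipid beside it, Pcyt2, Ptdss1 and Chpt1 were called in whole-cell astrocytes, and none was called in the other fits. The other calls were of genes that handle the products and of related aminotransferases. Of 27 genes listed around the pathway, 24 were in each table. On Day 1, edgeR called 0 of 16 tested in astrocytes, where 3 had an unadjusted p below 0.05 and 1.55% of all genes were called, and 0 of 4 in ependymal cells, where 2 had an unadjusted p below 0.05 and 19% of all genes were called. By DESeq2 the counts were also 0 and 0. In Day 1 tanycytes 2 of 10 were lower and 0 higher, beside 9.14% of all genes called. Both calls were lost without FGF1 mouse 2, vehicle mouse 1 or vehicle mouse 2, and the 1 gene called without vehicle mouse 1 was another. In astrocytes 1 gene was called without FGF1 mouse 1, and in ependymal cells 1 without FGF1 mouse 3 or vehicle mouse 2. In Day 5 astrocyte nuclei 0 of 20 were called, also by DESeq2, 0 with an unadjusted p below 0.05, beside 0.625% of all genes. In whole cells 5 were higher and 1 lower of 21 in astrocytes, 0 and 1 of 19 in ependymal cells, and 1 and 2 of 22 in tanycytes (1 in all without FGF1 mouse 7, vehicle mouse 20 or vehicle mouse 25), beside 12.6%, 1.28% and 5.08% of all genes called. Median log2 fold changes of the list were 0.17, -0.09 and -0.15, and those of all genes -0.02, -0.02 and -0.01. In Day 1 astrocytes, tanycytes and ependymal cells the list medians were 0.09, -0.03 and -0.57, the last over 4 genes, beside -0.01, 0.03 and -0.05 for all genes. In Day 5 astrocyte nuclei the median was 0.23, beside -0.02.

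Among the users of phosphoethanolamine, Pcyt2, the enzyme that commits it to phosphatidylethanolamine by coupling it to CDP, fell in whole-cell astrocytes from 99.4 ± 18.1 to 67.6 ± 14.4 CPM (log2 fold change -0.54 ± 0.14, FDR 0.0096). It was also at 103 ± 16.3 and 199 ± 44.6 CPM in Day 1 astrocytes, where it was not called (FDR 0.466). The other listed users, Cept1 (0.13 ± 0.14, FDR 0.617) and Ept1 (0.20 ± 0.21, FDR 0.581), which join the CDP-linked head group to the lipid, did not pass in whole-cell astrocytes. The makers were not called in any of these fits, and 2 of them were picked for display after their values were seen. Etnk1, the ethanolamine kinase, stood at 118 ± 13.7 CPM after FGF1 and 117 ± 14.7 after vehicle in whole-cell astrocytes. Sgpl1, the lyase that releases phosphoethanolamine from sphingosine phosphate, stood at 47.1 ± 10.2 and 35.6 ± 8.69 CPM there (FDR 0.0523).

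Of the routes beside it, 1 gene of the phosphatidylserine route and 1 of the choline branch rose in whole-cell astrocytes. Ptdss1, which makes phosphatidylserine, rose from 46.5 ± 6.00 to 70.4 ± 12.3 CPM (0.58 ± 0.14, FDR 0.0061). Chpt1, the last enzyme of the choline branch, rose from 216 ± 35.0 to 355 ± 48.2 CPM (0.72 ± 0.12, FDR 0.00015). Neither was called in tanycytes or ependymal cells. On Day 1 Chpt1 was lower after FGF1, though not called. In Day 1 tanycytes it stood at 87.2 ± 42.0 CPM after FGF1 and 238 ± 77.4 after vehicle (-1.42 ± 0.42, FDR 0.0527). In Day 1 ependymal cells it was at -0.93 ± 0.38 (FDR 0.101) and in Day 1 astrocytes at -0.76 ± 0.42 (FDR 0.691). Among their neighbours, Ptdss2 (FDR 0.116), Pisd (0.223), Pcyt1a (0.258) and Pcyt1b (0.97) did not pass in these astrocytes.

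The aminotransferases Abat and Oat, which use pyridoxal phosphate as Etnppl does, rose in the same astrocytes. Abat, which breaks down the transmitter GABA, rose from 303 ± 28.4 to 559 ± 110.2 CPM (0.88 ± 0.12, FDR 1.4e-05), and Oat, the ornithine aminotransferase, from 156 ± 18.4 to 234 ± 39.5 CPM (0.59 ± 0.12, FDR 0.0014). In Day 1 tanycytes Abat had fallen, from 217 ± 49.8 to 68.0 ± 14.3 CPM (-1.63 ± 0.39, FDR 0.0197). Oat rose in Day 5 tanycytes from 140.0 ± 15.2 to 187 ± 32.9 CPM (0.41 ± 0.12, FDR 0.0482), a call that was lost when 1 of 8 single mice was left out or when cells above the 20% mitochondrial and ribosomal limit were removed.

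Glul and Glud1, enzymes that handle ammonia, one of the products, were called in several types, and no difference between types was tested. Glul, glutamine synthetase, fell in whole-cell tanycytes from 771 ± 122 to 441 ± 42.9 CPM (-0.81 ± 0.11, FDR 0.00017) and in ependymal cells from 558 ± 135 to 334 ± 62.1 CPM (-0.78 ± 0.16, FDR 0.0073), but in astrocytes stood at 2228 ± 286 and 2134 ± 163 CPM after FGF1 and vehicle (FDR 0.749). It had fallen in Day 1 tanycytes too, from 415 ± 72.2 to 118 ± 63.7 CPM (-1.71 ± 0.42, FDR 0.0217). Day 1 astrocytes held 271 ± 240.3 CPM of Glul after FGF1 and 1013 ± 553 after vehicle (-1.89 ± 0.76, FDR 0.421). In Day 1 ependymal cells Glul was at -1.03 ± 0.46 (FDR 0.143), so it was also lower in both types, without a call. Glud1, glutamate dehydrogenase, rose in whole-cell astrocytes from 503 ± 52.3 to 659 ± 49.6 CPM (0.39 ± 0.10, FDR 0.0089) and fell in tanycytes from 159 ± 29.2 to 108 ± 16.1 CPM (-0.55 ± 0.13, FDR 0.0157). With the authors' batch as a term the Day 1 tanycyte calls of Glul and Abat were lost, leaving 0 pathway genes called there. The tanycyte call of Glud1 was lost without FGF1 mouse 7, vehicle mouse 20 or vehicle mouse 25. Astrocyte-rich genes in tanycytes, Glul among them, moved beside an astrocyte marker sum that was lower after FGF1, as given above, and its part was not tested. Exons of Chpt1, Glul and Ptdss1, and of Dbp, Sepp1 and Tlcd1 named below, overlap those of a gene on the other strand, and the sources used here do not say whether strand was used in counting, so their counts are uncertain to that extent.

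**Figure D4:**
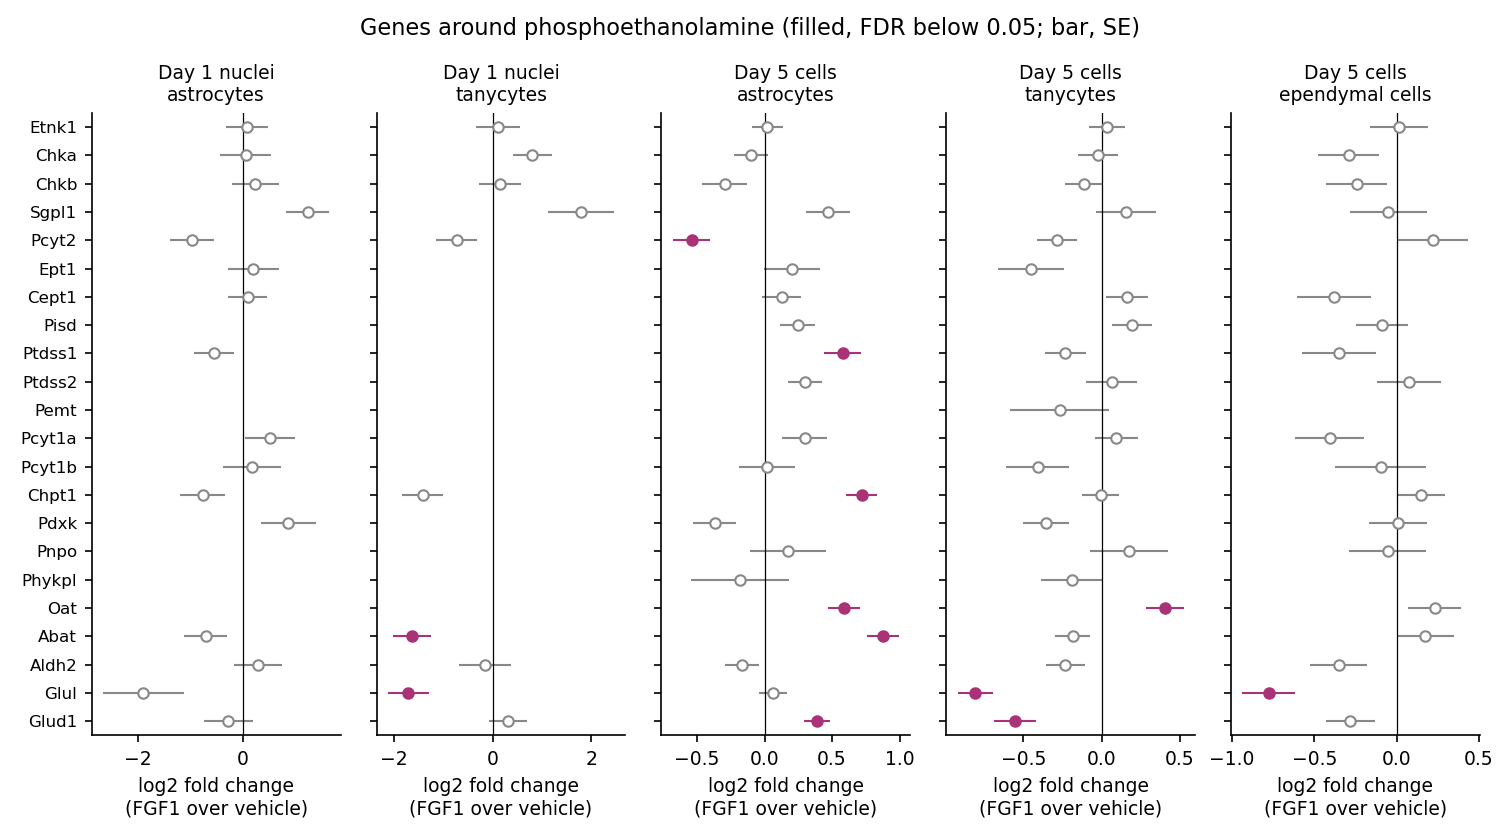
Log2 fold change (x axis, FGF1 over vehicle) with SE of genes around phosphoethanolamine (y axis, ordered by role), by comparison and cell type; filled points passed FDR below 0.05 in edgeR. Of the called genes in whole-cell astrocytes, 5 lie to the right and Pcyt2 to the left, while in tanycytes and ependymal cells Glul, called there, lies to the left.

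The genes whose levels across cell types of vehicle mice were most like those of Etnppl were listed by Pearson's r of log2(CPM + 1), 20 from nuclei (25 types, 16225 genes of at least 10 CPM in a type) and 20 from whole cells (18 clusters, 13320 genes). Types share libraries and free RNA, so r is a description. The nuclei list opened with Mgst1 (r = 0.887), a microsomal glutathione transferase, Plcd1 (0.880), Ddit4 (0.869), Htra1 (0.865) and Dbp (0.864), followed by Bbox1, Nde1, Sepp1, Fam20a and Pxmp2 (0.859 to 0.854). The whole-cell list opened with Clu (0.946), the secreted chaperone clusterin, Slc4a4 (0.932), a bicarbonate transporter, Appl2 (0.932), Ndrg2 (0.912) and Cml5 (0.909), followed by Cbs, Adrbk2, Tst, Fam213a and Sds (0.905 to 0.891), and also held Glud1. The lists shared 0 genes. Each was followed in the other preparation, so that no mouse both chose and tested a gene.

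In Day 1 astrocytes 0 of 16 tested genes of the whole-cell list were called, beside 1.55% of all genes, and also 0 by DESeq2. Of the 16, 5 had an unadjusted p below 0.05, and 1 was called without FGF1 mouse 1. Their log2 fold changes were below 0 in 14 of 16, as in 50.8% of all genes, with a median of -0.82 beside -0.01 for all genes. In Day 1 ependymal cells 4 of 9 fell and 0 rose, beside 8.86% of all genes called lower there. Ndrg2 fell from 495 ± 83.9 to 142 ± 19.7 CPM (-1.75 ± 0.32, FDR 0.00094). Gja1, the gap junction protein connexin 43, fell from 389 ± 75.2 to 94.0 ± 35.8 CPM (-2.0 ± 0.38, FDR 0.0012). Adrbk2, a receptor kinase, fell by 2.10 ± 0.48 (FDR 0.0049) and Slc4a4 by 1.40 ± 0.35 (FDR 0.0082) on the log2 scale. Gja1 is also on the astrocyte marker list, and in vehicle whole cells these 4 genes were highest in astrocyte cluster 1 or 4. The astrocyte markers summed lower after FGF1 in these ependymal nuclei, as given above, and the part of that shift in the 4 falls was not tested. The Slc4a4 call was lost without FGF1 mouse 1 or vehicle mouse 1.

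In Day 1 tanycytes 1 of 12 rose and 1 fell, beside 9.14% of all genes called there. Clu rose from 370.4 ± 92.7 to 1165 ± 400.2 CPM (1.66 ± 0.42, FDR 0.0274), and Fam213a fell from 137 ± 50.6 to 36.4 ± 19.4 CPM (-1.75 ± 0.47, FDR 0.034). Both calls were lost with batch as a term, which left 0 called, and that of Fam213a also by DESeq2. Both were also lost without FGF1 mouse 2, vehicle mouse 1 or vehicle mouse 2, and that of Clu without vehicle mouse 3. The 1 gene called without vehicle mouse 2 was another. In Day 5 astrocyte nuclei 0 of 16 were called, beside 0.625% of all genes, 1 had an unadjusted p below 0.05, and DESeq2 called 1. The fit without vehicle mouse 28 or 38 also called 1, but it left 1 vehicle mouse, assumed to vary as the 2 FGF1 mice do. Of the 16, 1 was below 0 on Day 5, as were 51% of all genes, and their median was 0.55 beside -0.02 for all genes. Clu was higher without a call in Day 1 astrocytes (1.62 ± 0.67, FDR 0.432) and Day 5 astrocyte nuclei (1.74 ± 0.43, FDR 0.0696). In Day 1 ependymal cells it was at -0.04 ± 0.30.

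Of 20 genes of the nuclei list, 4 rose and 2 fell in whole-cell astrocytes, beside 12.6% of all genes called in either direction and 6.06% called lower. Differences between types were not tested. Tlcd1, a membrane lipid protein, fell from 260 ± 80.8 to 114 ± 27.6 CPM (-1.18 ± 0.21, FDR 0.0024), and Ddit4, an inhibitor of mTOR signaling induced by stress, fell from 173 ± 48.9 to 79.4 ± 19.0 CPM (-1.08 ± 0.20, FDR 0.0026). Bbox1, the last enzyme of carnitine synthesis, rose by a log2 fold change of 0.66 ± 0.16 (FDR 0.0072), Tspan15 by 0.52 ± 0.12 (FDR 0.0031), Gm2a, a ganglioside activator protein, by 0.48 ± 0.11 (FDR 0.003) and Ednrb, the endothelin B receptor, by 0.34 ± 0.10 (FDR 0.0298). The call of Ednrb was lost with batch as a term and without any 1 of 6 single mice. Etnppl itself, at -0.60, was less far below 0 than Tlcd1 and Ddit4 in these cells.

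In tanycytes 1 of 20 rose and 6 fell, beside 5.08% of all genes called in either direction and 2.79% called lower. Dbp, a circadian transcription factor, fell from 113 ± 25.3 to 55.2 ± 4.75 CPM (-1.01 ± 0.13, FDR 8.5e-05). Tlcd1 fell by 0.99 ± 0.18 (FDR 0.0021), Ednrb by 0.79 ± 0.17 (FDR 0.0075), Ddit4 by 0.50 ± 0.15 (FDR 0.0473), Fasn, the fatty acid synthase, by 0.48 ± 0.11 (FDR 0.0143) and Sepp1, selenoprotein P, by 0.47 ± 0.13 (FDR 0.032) on the log2 scale. Mgst1 rose from 241 ± 24.0 to 325 ± 46.5 CPM (0.43 ± 0.11, FDR 0.0227). The call of Ddit4 was lost by DESeq2, with no low-count filter and without any 1 of 8 single mice. That of Sepp1 was lost without any 1 of 7 mice, that of Mgst1 without any 1 of 4, and that of Fasn without vehicle mouse 25. The count of like genes called in tanycytes fell from 7 to 3 without vehicle mouse 25, and to 4 without FGF1 mouse 10 or vehicle mouse 20. In ependymal cells 0 of 18 were called by edgeR and 0 by DESeq2, beside 1.28% of all genes by edgeR, and 6 had an unadjusted p below 0.05. Without vehicle mouse 25 or 35, 1 was called. There Etnppl had the lowest fold change of all genes tested, but it was chosen for its fall, so the rank is only a description.

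**Figure D5:**
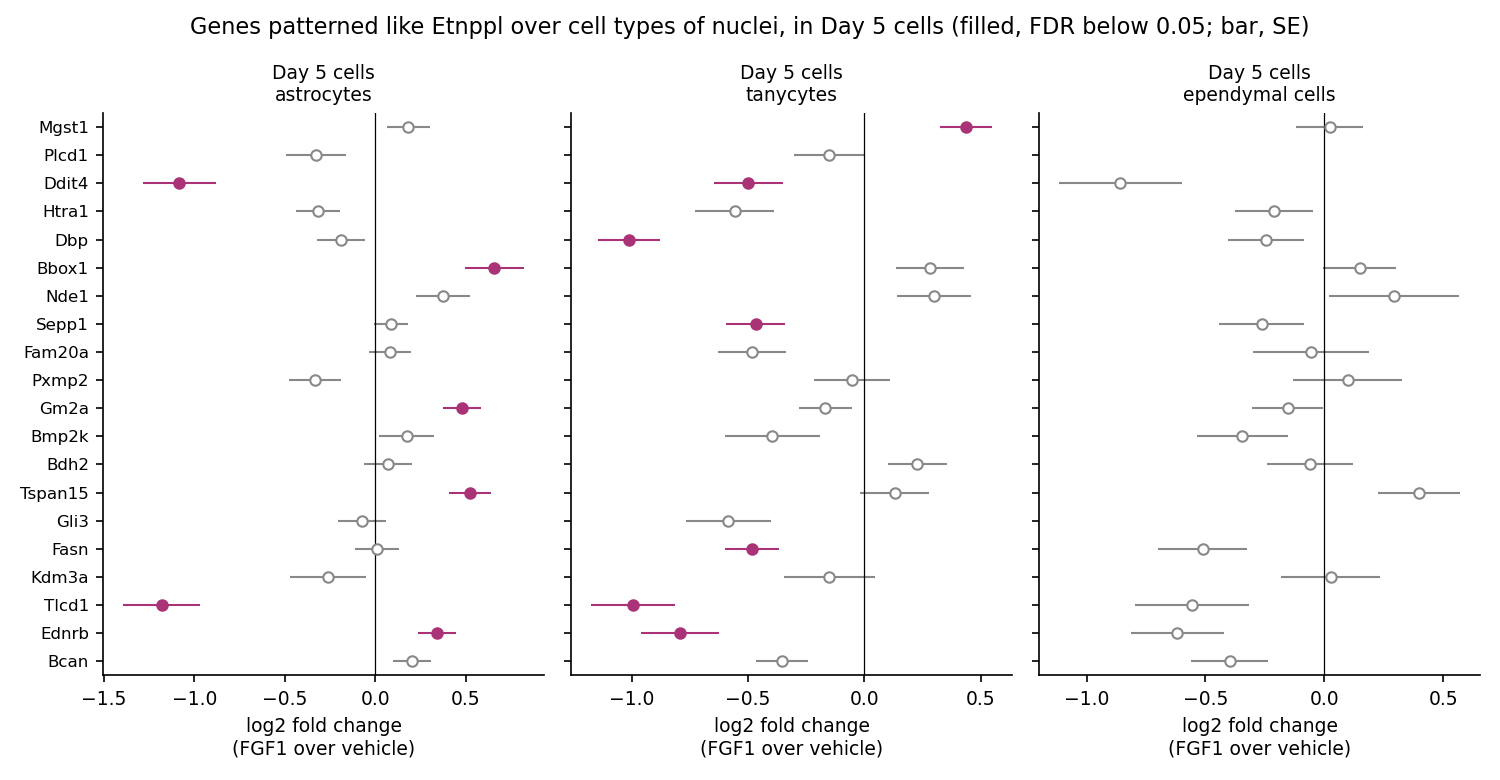
Log2 fold change (x axis, FGF1 over vehicle) with SE in Day 5 whole cells of the 20 genes patterned most like Etnppl across nuclei types (y axis, most alike on top); filled points passed FDR below 0.05 in edgeR. In astrocytes 4 genes are called higher and 2 lower, in tanycytes 1 higher and 6 lower, and in ependymal cells 0.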

How the data were processed

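Raw UMI counts per gene and barcode were used as deposited by the authors, who made them from 10x libraries with Cell Ranger 1.2 on GRCm38 (mm10), counting introns for nuclei. Doublets had been removed from whole cells by the authors with Scrublet but not from nuclei, and no caller was run here. The mitochondrial and ribosomal percent per cell and the cluster numbers are those of the deposited metadata, and the authors' normalized tables were not used.

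For each mouse and cell type counts were added up (at least 10 cells of a type per mouse and 2 mice per group) and fitted with edgeR 4.0.16 (filterByExpr, TMM, robust quasi-likelihood F test) in R 4.3.3, FGF1 against vehicle, with no covariate. FDR is the Benjamini-Hochberg value over all genes tested in a type, called below 0.05. The code was tested on simulated data. Alternatives were DESeq2 1.42.0, RLE scaling, no low-count filter, 20 cells per mouse, a replicate block, batch as a term, cells within the study's 20% limit and leaving out each mouse. Whole-cell clusters were named where at least 3 markers of a type were each in 10% or more of cells and enriched 2-fold. Genes were named by rule: Etnppl, every called gene of the pathway list, and of the 20 genes most like Etnppl in each preparation the first 10 and every one called in the other. Etnppl, the lists and the markers were chosen with earlier results of these data known.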

Additional observations from a re-analysis of the deposited data

Results flagged for a closer look

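Among 34 sets of 6 mice examined in the Day 5 whole cells, 2 had a mouse set apart from the others, meaning that its gap to the nearest mouse exceeded 0.625 of the range. Chance alone sets apart about 1 set in 20. Both were FGF1 mouse 10 in astrocytes, whose Etnppl level of 509 CPM was the highest of the 6 FGF1 mice and whose thinned share of astrocytes with an Etnppl UMI was 39.1%. Without this mouse the astrocyte log2 fold change was -0.65, and -0.60 with it.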

How the results depend on the processing

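The Etnppl log2 fold change kept its direction under every alternative run. It moved by more than the spread between mice once outside the fits that left out a mouse, in Day 5 astrocyte nuclei with no low-count filter (-0.22). Leaving out each mouse in turn gave -3.28 to -2.76 in Day 1 astrocytes, -4.60 to -3.20 in ependymal cells and -4.18 to -3.42 in tanycytes, -0.40 to -0.24 in Day 5 astrocyte nuclei (where 1 mouse then stands alone, assumed to vary like the other group), and -0.65 to -0.55, -1.89 to -1.62 and -1.93 to -1.66 in whole-cell astrocytes, ependymal cells and tanycytes. The Day 1 tanycyte log2 ratio of shares was -3.99 thinned and -3.19 unthinned.

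With no low-count filter 1 like gene was called in Day 1 astrocytes, in Day 5 astrocyte nuclei and in whole-cell ependymal cells, and 1 pathway gene in Day 1 ependymal cells. In Day 1 tanycytes like genes called were 1 by DESeq2 and 0 with batch as a term, which also left 0 pathway genes. In Day 5 astrocyte nuclei DESeq2 and RLE scaling each called 1 like gene. With a pseudocount of 0.1, 9 of the 20 genes of the nuclei list stayed listed, and with 10 it was 7, and 13 of the whole-cell list.

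With 1 mouse left out, pathway genes called were 0 to 1 in Day 1 astrocytes and ependymal cells, 0 to 3 in tanycytes, 0 in Day 5 nuclei, and 6 to 7, 1 and 1 to 3 in whole-cell astrocytes, ependymal cells and tanycytes. Like genes called were 0 to 1, 3 to 4 and 0 to 2 in the 3 Day 1 types, 0 to 1 in Day 5 nuclei, and 5 to 8, 0 to 1 and 3 to 10 in whole cells.

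Day 1 mice share replicate numbers 1 to 3 across groups, and only those numbered 3 gave positive correlations of their deviations, in astrocytes and less so in tanycytes. Deviations were taken from means of 3 mice, so these correlations are not independent and do not show whether mice were paired. The mice numbered 3 also had the fewest UMIs of their groups, 3529889 after FGF1 and 4103747 after vehicle, and the part of depth was not tested. The correlations were -0.14, -0.50 and 0.52 in astrocytes, -0.08, -0.26 and 0.18 in tanycytes and -0.02, -0.14 and -0.04 in ependymal cells. Mice of the same batch gave -0.66, 0.07 and -0.58 in astrocytes, -0.33, 0.02 and -0.24 in tanycytes and -0.13, -0.01 and 0.01 in ependymal cells. With the replicate block Etnppl was at -3.10, -3.72 and -3.98, and 1 like gene was called in tanycytes, since Clu lost its call. Depth limits the Day 1 values, with 70, 6 and 5 Etnppl UMIs in FGF1 astrocytes, tanycytes and ependymal cells.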

Other observations

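Nuclei that the authors marked as filtered held Etnppl as well. On Day 1 they had 3 UMIs in 175 nuclei of FGF1 mice and 37 in 125 nuclei of vehicle mice, and on Day 5 43 in 245 and 28 in 115. The whole-cell clusters left without a name, 18, 19 and 20, held 14 Etnppl UMIs in 118 cells of FGF1 mice and 23 in 152 cells of vehicle mice. In whole cells pericytes had the second highest vehicle mean, 286 ± 232 CPM (SD, n = 6) from 60 UMIs in 182 cells, ranging from 105 to 738 CPM, and 92.3 ± 123 CPM after FGF1 with 2 of 6 mice at 0. Agouti-related peptide (Agrp) neurons, which drive feeding, had 1 UMI in 145 nuclei after FGF1 and 3 in 82 after vehicle on Day 1, and 0 in 57 and 1 in 57 on Day 5.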
